A study of Drosophila melanogaster with 8 samples.

Results

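Imaginal disc growth factor 1 (Idgf1) was read in whole adult Drosophila melanogaster by 1 probe, found by the array's accession for the gene (NM_057910) among 32162 fly probes, and is 1 of 324 genes that could be named on the array. The flies were of 2 genotypes: w1118;darkcd4, which carries the darkcd4 allele and had been backcrossed for 6 generations to w1118, and w1118 itself, the white-eyed strain that serves as the control. Both genotypes are thus labelled as w1118, and the labels name no transgene or driver. The darkcd4 allele and any other sequence left from its donor strain after the backcross cannot be told apart here. Each genotype had 4 samples, and each sample was total RNA pooled from 5 adults at day 5, kept at 25 °C with free access to food and mates. The labels give neither the sex of the flies nor whether separate cultures were sampled, so errors and p-values below measure only the spread between these samples. Dark, the Apaf-1 homologue of the fly, assembles the apoptosome on which the caspase Dronc is activated, and the series title describes the mutant as deficient in apoptosis. The gene Idgf1 was chosen with results of this same comparison known, so its difference between genotypes is given as a description, with no test.

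The imaginal disc growth factors are secreted proteins related to chitinases that have lost the ability to cut chitin. They were first known for stimulating the growth of imaginal disc cells in culture, alongside insulin. They have since been tied to cuticle formation, wounding and immunity, and are made in the larval fat body and in hemocytes, the blood cells of the fly. Apoptosis-deficient flies are known for systemic immune activation linked to necrotic cells, and the comparison asks whether Idgf1 RNA differs in such flies.

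The reference annotation (Release 6 assembly) places Idgf1 on chromosome arm 2L, with 1 RefSeq transcript, directly before its relatives Idgf2 and Idgf3 and overlapping another gene, CG5888. The mutated gene Dark lies on the other arm of the same chromosome, 2R. The other 3 members of the family, Idgf4, Idgf5 and Idgf6, lie on X, 2R and 2R. Of the 6 family members only Idgf1 could be named on the array, where most probes are listed by FlyBase transcript number, and the reference table has none of those numbers. With 1 probe, a sequence difference under the probe and a difference in RNA level cannot be told apart. The strand that the probe reads was not checked, so RNA of Idgf1 and of CG5888 cannot be told apart with certainty.

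The Idgf1 signal was low on every array and higher in darkcd4 flies. The probe was printed as 2 spots, and the processed signal, a linear intensity after background subtraction by the scanner software, was 13.1 and 17.0 in darkcd4 replicate 1 and 21.6 and 25.8 in darkcd4 replicate 2. It was 7.93 and 11.8 in darkcd4 replicate 3 and 16.0 and 13.2 in darkcd4 replicate 4. In w1118 flies the 2 spots read 6.51 and 5.16 in replicate 1, 7.57 and 8.53 in replicate 2, 5.19 and 8.39 in replicate 3, and 4.28 and 2.80 in replicate 4. Averaged over the spots of an array, the 4 darkcd4 arrays were all above the 4 w1118 arrays, and darkcd4 replicate 2 was the highest. Single spots did overlap: the lower spot of darkcd4 replicate 3 lay below spots of w1118 replicates 2 and 3.

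**Figure D1:**
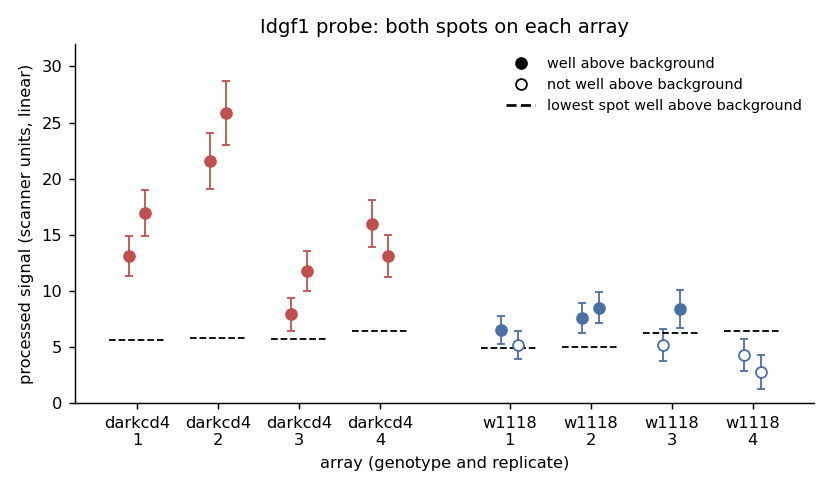
Processed signal of the 2 Idgf1 spots on each array, on a linear axis in scanner units, with the scanner software's error for each spot as bars. Filled points were well above background and open points were not, and each dashed line marks the lowest signal of any non-control spot well above background on that array. All 8 darkcd4 spots are filled, against 4 of 8 w1118 spots, and the 4 open points lie in w1118 replicates 1, 3 and 4.

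The scanner software marked 8 of 8 spots as well above background in darkcd4 arrays and 4 of 8 in w1118 arrays. Both w1118 replicate 2 spots passed, 1 of 2 passed in w1118 replicates 1 and 3, and neither passed in w1118 replicate 4. By the less strict flag for a signal significantly above background, 8 of 8 spots passed in darkcd4 and 8 of 8 in w1118. The unprocessed median signal of a spot was between 30 and 54.5 in darkcd4 and between 25 and 30 in w1118, with a local background between 17 and 19 in darkcd4 and between 16 and 18 in w1118. The background around the spots thus covered nearly the same range in both genotypes. Median signal minus background was 21.9 ± 7.32 in darkcd4 and 10.9 ± 1.20 in w1118 (mean ± SD, n = 4 each), values that can be read without any scaling between arrays.

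Relative to the 75th percentile of its array, on the log2 scale, the Idgf1 level was -4.09, -3.96, -5.74 and -4.67 in darkcd4 replicates 1 to 4. It was -6.30, -6.10, -6.16 and -7.14 in w1118 replicates 1 to 4. The groups did not overlap, and the lowest darkcd4 array, replicate 3, stood 0.37 above the highest w1118 array, replicate 2. Among all 19204 targets tested, 5.98% likewise had every darkcd4 value above every w1118 value, and 5.82% had every one below. Means were -4.61 ± 0.81 in darkcd4 and -6.43 ± 0.48 in w1118 (SD, n = 4 each). The difference was 1.81 ± 0.42 on the log2 scale (SE from the limma fit over all targets), a level 3.51-fold higher in darkcd4. In whole flies, more RNA per cell and more cells that make it cannot be told apart. A difference at least this large upwards was found for 155 of the 19204 targets (0.807%), Idgf1 included, and the median difference over all targets was -0.02. In that fit 420 targets were called (limma, Benjamini-Hochberg adjusted p under 0.05), which is 2.19%, with 246 higher and 174 lower in darkcd4; with no scaling between arrays 105 were higher and 185 lower. Idgf1 was not among the 420, and since the gene was picked from this comparison nothing is read from that in either direction.

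**Figure D2:**
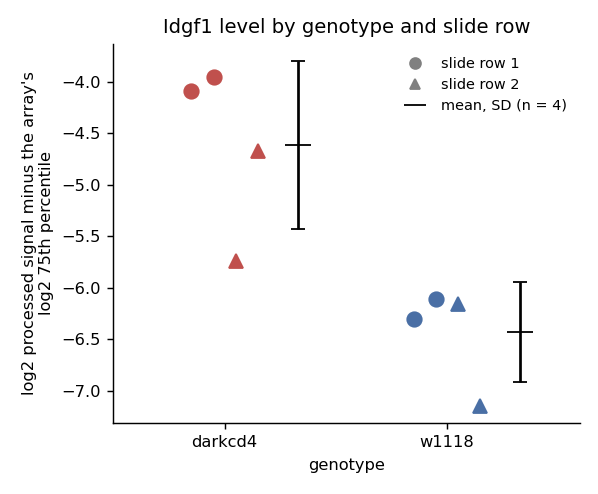
Idgf1 level on each array, as log2 processed signal minus the array's log2 75th percentile, for the 4 darkcd4 and the 4 w1118 samples, with circles for slide row 1 and triangles for slide row 2 and black bars for the mean and SD. The darkcd4 points lie between -5.74 and -3.96 and the w1118 points between -7.14 and -6.10, without overlap.

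The size of the difference depended on how the low signal was treated. With normexp background correction of the median signal, which adds an offset of 50 before the log, the difference was 0.32 ± 0.09 after quantile normalization and 0.62 ± 0.20 after scaling to the 75th percentile (log2 difference, SE). An offset of this size exceeds the whole net signal of the probe, so it compresses fold changes of dim probes. As folds these values were 1.25 and 1.53, against 3.51 with the processed signal. With w1118 values under the lowest signal of a spot well above background raised to that signal, the difference was 1.59, or 3.01-fold. Without any scaling between arrays it was 1.38, where the median of all targets stood at -0.45. That median was 0.13 with normexp and percentile scaling and -0.01 with normexp and quantile normalization. The darkcd4 and w1118 arrays did not overlap in any of the 4 forms of the data compared array by array. In these the lowest darkcd4 array stood above the highest w1118 array by 0.37 (scaled to the 75th percentile) and 0.43 (quantile-normalized). The gap was 0.26 in the unscaled data and only 0.05 after normexp with quantile normalization. Normexp with percentile scaling was not compared array by array.

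**Figure D3:**
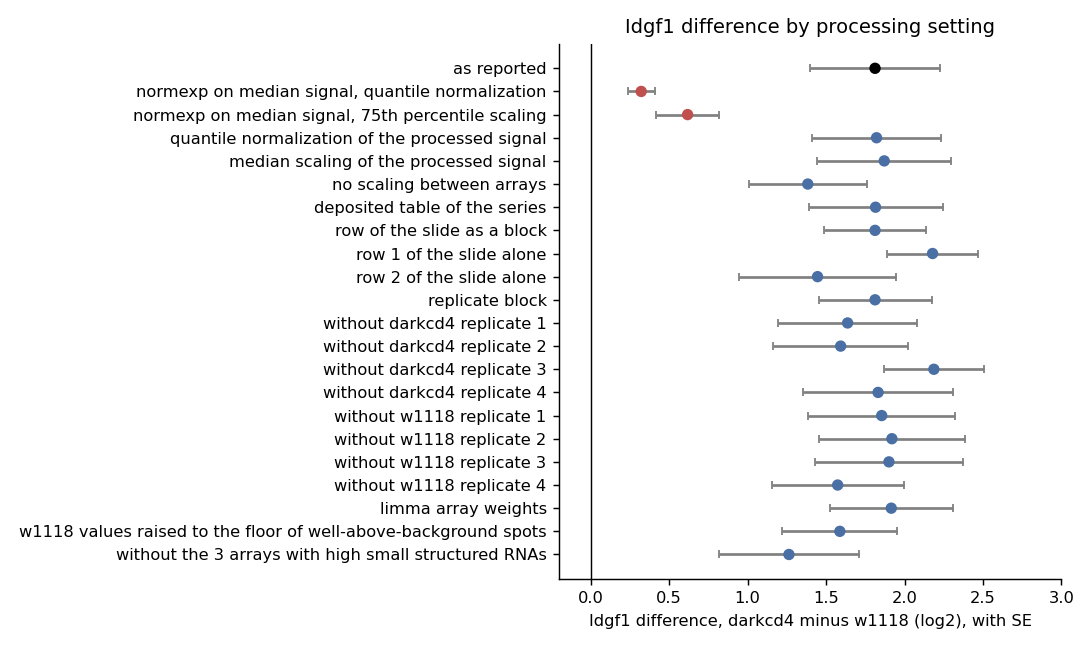
Idgf1 difference, darkcd4 minus w1118 on the log2 scale, under the reported setting (black) and under alternatives, with SE from limma as bars. All points lie above 0, and the 2 normexp settings (red), at 0.32 and 0.62, stand apart from the rest, which lie between 1.26 and 2.19.

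The spread of Idgf1 between arrays was larger than that between its 2 spots on an array. The spots differed by 0.26 to 0.57 on the log2 scale in darkcd4 arrays and by 0.17 to 0.69 in w1118 arrays. As an SD for a single spot this was 0.28 in darkcd4 and 0.35 in w1118, against SDs between arrays of 0.81 and 0.48 for the mean of the 2 spots. For comparison, other probes printed as 2 spots with a mean signal between 3 and 32 differed between their spots by a median of 0.27 to 0.28 in darkcd4 arrays and 0.27 to 0.30 in w1118 arrays.

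The 8 arrays lay on 1 slide and shared 1 scan. Replicates 1 and 2 of both genotypes were in row 1 of the slide and replicates 3 and 4 in row 2, while each of the 4 column positions held 1 genotype, so an effect of the column cannot be told apart from one of genotype. Idgf1 was higher in row 1 than in row 2 in both genotypes, by 1.18 in darkcd4 and by 0.45 in w1118 on the log2 scale. Within row 1 the difference between genotypes was 2.18 ± 0.29, and within row 2 it was 1.45 ± 0.50 (log2 difference, SE from limma, n = 2 per genotype). The direction was the same in both rows, which follows from the lack of overlap between genotypes over all 8 arrays.

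Array brightness and the small structured RNAs (snoRNAs, snRNAs of the spliceosome and the RNAs of the signal recognition particle and of RNase MRP) also differed between arrays. The array's 75th percentile, on the linear scale of the processed signal, was 254, 367, 516 and 370 in darkcd4 replicates 1 to 4, against 456, 553, 472 and 488 in w1118 replicates 1 to 4. The mean log2 level of 12 small structured RNAs was 1.92, 1.44, -0.66 and -0.27 in darkcd4 replicates 1 to 4, against 1.19, -0.60, -0.68 and -0.23 in w1118 replicates 1 to 4. The 2 darkcd4 arrays with the highest Idgf1 are thus those with the highest small structured RNAs, whereas w1118 replicate 1, also high in those RNAs, had an Idgf1 level within the range of its group. Without these 3 arrays the Idgf1 difference was 1.26 ± 0.45 (log2 difference, SE). Only darkcd4 replicates 3 and 4 and w1118 replicates 2 to 4 remained in that fit. Darkcd4 replicate 3, the brightest array of its genotype, had the lowest Idgf1 level of the 4.

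**Figure D4:**
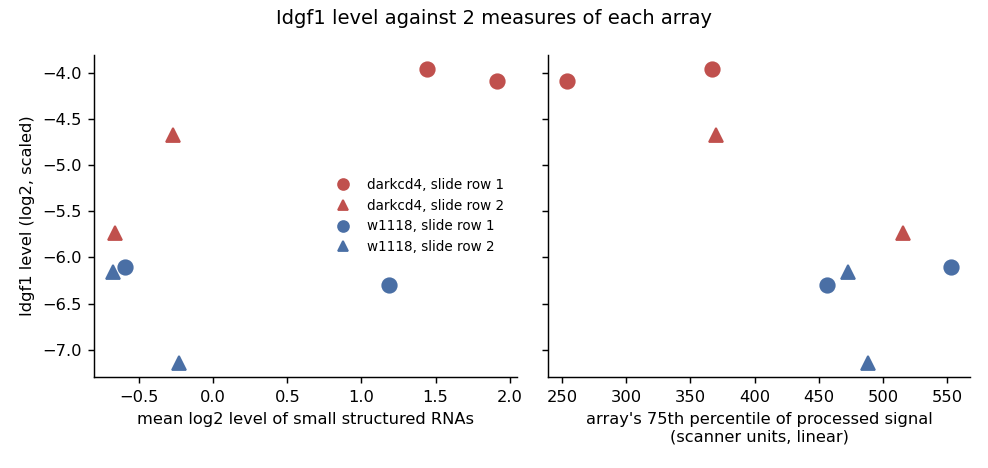
Idgf1 level (log2, scaled to the 75th percentile) of each array against the mean log2 level of 12 small structured RNAs (left) and against the array's 75th percentile of the processed signal (right), with darkcd4 in red and w1118 in blue, circles for slide row 1 and triangles for row 2. The darkcd4 points with small structured RNAs at 1.44 and 1.92 have the highest Idgf1 levels, while the w1118 point at 1.19 has an Idgf1 level of -6.30.

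The immune, wound and growth factor genes that could be set beside Idgf1 were few. Of 168 other genes in 13 lists, 3 could be named on the array and 2 passed the background filter. Those lists cover the imaginal disc growth factors, chitinases, adenosine deaminase growth factors, antimicrobial peptides, Bomanins, the Toll and Imd pathways, JAK/STAT and stress-induced humoral factors, JNK and wound response, clotting and melanization, apoptosis machinery, S-adenosylmethionine and sarcosine metabolism, and insulin and FOXO-linked genes. In 10 of the 13 no gene beside Idgf1 could be named, the antimicrobial peptides, chitinases and both immune pathways among them, so their levels are not analysed here. Of the 2 tested genes 0 were called (limma), and 1 had an unadjusted p under 0.05. Over all 19204 targets 2.19% were called and 21.1% had an unadjusted p under 0.05, so a count over 2 genes says nothing about the lists.

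Grainy head (grh), a transcription factor of the epidermal barrier and wound response, had a log2 difference of -0.02 ± 0.31 (SE, n = 4 per group; limma, adjusted p = 0.981). Mthfs, a folate enzyme, had a log2 level of 3.21, 2.88, 1.80 and 2.82 in darkcd4 replicates 1 to 4 and of 2.24, 1.06, 1.19 and 1.05 in w1118 replicates 1 to 4. The groups overlapped through w1118 replicate 1 and darkcd4 replicate 3. Its difference was 1.29 ± 0.35 (limma, adjusted p = 0.0984). Mthfs was called when w1118 replicate 1 or darkcd4 replicate 3 was left out. It was also called with the slide row or the replicate number as a block and with array weights. Each time it was the 1 listed gene that passed. The insulin-like peptide gene Ilp6 was well above background on 0 arrays.

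Of 5 further genes with a link to immunity, chosen from the named genes of the array, 4 passed the background filter and 0 were called (limma), with a median difference of -0.09 against -0.02 over all targets, of which 2.19% were called. NimC3, of the Nimrod family of phagocytic receptors, was at -4.63, -5.04, -4.60 and -4.93 in darkcd4 replicates 1 to 4. In w1118 replicates 1 to 4 it was at -6.12, -5.41, -5.21 and -5.17. Its groups did not overlap, and its difference of 0.68 ± 0.25 did not pass (limma, adjusted p = 0.177). LUBEL, the ligase for linear ubiquitin chains, differed by -0.13 ± 0.33, CrebA, a transcription factor of the secretory pathway, by -0.07 ± 0.32, and CHKov1, tied to resistance to sigma virus, by -0.12 ± 0.33, all with overlapping groups (limma, adjusted p = 0.841, 0.923 and 0.848). Mef2 was not well above background on any array.

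Markers of the main organs of the fly were fixed as 8 lists with 72 genes, of which 5 could be named. Hemocytes and the larval fat body are named above as sources of the family, and where Idgf1 is made in these adults was not measured. The lists of hemocyte and fat body markers had 0 named genes, so neither could be followed beside Idgf1. The gut lysozyme genes LysB and LysE were lower in darkcd4, with log2 differences of -2.47 ± 0.25 and -2.22 ± 0.21 (SE; limma, adjusted p = 0.00163 and 0.00127), and Jon65Aiii differed by -0.52 ± 0.18 (limma, adjusted p = 0.163). Dup99B, which encodes a seminal peptide made in the ejaculatory duct, was well above background on all 8 arrays and differed by 0.08 ± 0.30 (limma, adjusted p = 0.897), and the cuticle gene obst-B by 0.02 ± 0.15 (limma, adjusted p = 0.953). Gut and male RNA was thus present in both genotypes.

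Among 265 other named genes that passed the background filter, the pattern over the 8 arrays most like that of Idgf1 was that of CG33941, with a Pearson correlation of 0.91. CG8204, the snoRNA host gene Uhg5, Mthfs and CR14033 followed at 0.89, 0.89, 0.88 and 0.88. The median over the 265 genes was -0.10. These correlations take in the difference between genotypes, which chose Idgf1, and all levels on an array share its scaling, so they are a description. CG33941 was at -2.97, -3.08, -3.48 and -3.43 in darkcd4 replicates 1 to 4, against -3.67, -3.55, -3.60 and -3.64 in w1118 replicates 1 to 4. CG8204 was at 1.39, 1.25, 0.56 and 0.70 in darkcd4 and at -0.49, -1.10, -0.48 and -0.55 in w1118, in the same order. Both were highest in darkcd4 replicates 1 and 2. Of the 5 genes 3, these and Uhg5, had no overlap between the genotypes, while Mthfs and CR14033 overlapped. CG8204 was called and the other 4 were not (limma, adjusted p = 0.00784 for CG8204 and 0.0984 to 0.250 for the others). Since likeness to Idgf1 takes in its difference between genotypes, nothing is read from these counts beside the 5.98% of all targets that were higher in darkcd4 without overlap.

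**Figure D5:**
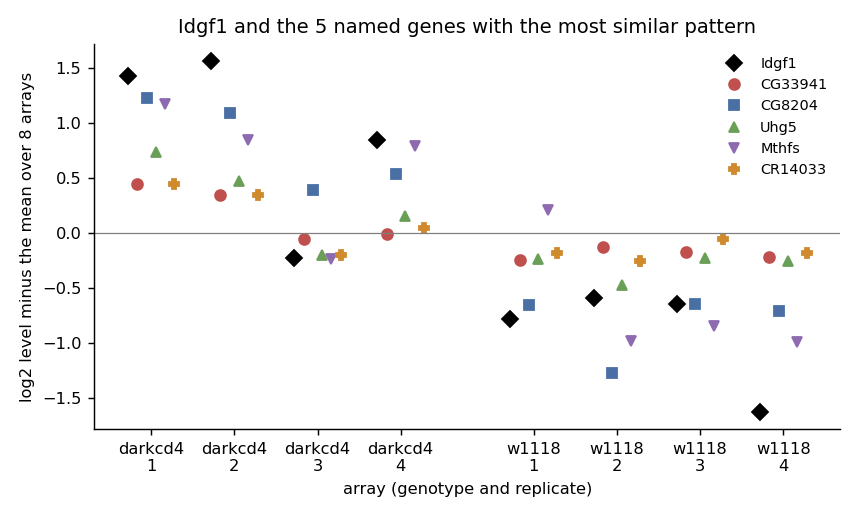
Log2 level of Idgf1 and of CG33941, CG8204, Uhg5, Mthfs and CR14033 on each array, each minus its own mean over the 8 arrays, with darkcd4 replicates left and w1118 replicates right. Idgf1 (black diamonds) and the other 5 genes are highest in darkcd4 replicates 1 and 2, and Idgf1 spans a wider range than each of the other 5.

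With the mean of each genotype removed, the genes most like Idgf1 were CG15254, lncRNA:CR31044, Wdr24, Uhg3 and CR14033, with correlations of 0.88, 0.87, 0.84, 0.81 and 0.80. Differences between slide rows and between arrays stay in these correlations. Idgf1 was higher in row 1 than in row 2, by 1.18 in darkcd4 and 0.45 in w1118. In darkcd4 all of these genes were higher on each row 1 array than on each row 2 array, in w1118 only Wdr24. Variation shared with Idgf1 and a row or array pattern cannot be told apart here. Wdr24 encodes a subunit of the GATOR2 complex, which acts on TORC1, and Uhg3 is a snoRNA host gene. The Wdr24 signal was low, like that of Idgf1, and well above background on only 2 darkcd4 and 3 w1118 arrays. The other genes of this set were well above background on all arrays. CR14033 was the 1 gene in both sets. Of these 5 genes 0 were called between genotypes (limma), against 2.19% of all targets, which for 5 genes is not a result. CG15254 differed by 0.98 ± 0.50 and lncRNA:CR31044 by 0.67 ± 0.33 on the log2 scale (SE; adjusted p = 0.289 and 0.277), whereas Wdr24 and Uhg3 were at -0.07 ± 0.25 and 0.20 ± 0.33 (adjusted p = 0.887 and 0.734).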

How the data were processed

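The samples, 4 of darkcd4 and 4 of w1118 whole-body RNA, were grouped by the genotype in their labels. Cy3-labelled cRNA was made from 50 ng of RNA, per the labels' protocols. The deposited spot values, per the file headers, are intensity values from Agilent Feature Extraction 10.7.3.1, with the processed signal background-subtracted and not scaled between arrays. The deposited series table holds log2 values that followed the scaled scanner values centred per probe; no source used here gives the authors' steps for it.

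Control spots, outlier spots and 80 probes for added bacterial RNAs were left out, and no spot was saturated. Spots were averaged as log2, minus the array's log2 75th percentile. That percentile was taken over all non-control spots, with the outlier spots and the bacterial probes still included. Probes well above background (a share of at least 0.5 of their spots) on at least 4 arrays entered, 24647 in all, with the brightest probe for each of 19204 targets, 266 of them named. Names came from the Release 6 reference table: accessions named 219 probes, symbols or synonyms 19 and cDNA clone names 146 (CG8204, CG33941, CR14033, grh, CrebA, CHKov1, LysE, obst-B and Vha100-3 among them). Coordinates are not printed, since the array's grid uses the older build dm3. Genotypes were compared with limma 3.58.1 (variance trend) in R 4.3.3, with Python 3.11.15 and matplotlib 3.10.9 for the rest; the fit was tested on simulated data. Precision is limited by the number of arrays.

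Idgf1 and all lists were chosen with earlier results of these data known. Genes were named by rule: Idgf1, list members that passed the filter, and the 5 named genes with the highest correlation with Idgf1, with and without the group means. The 5 further immunity-linked genes and the genes with an opposite pattern were added after the files were seen.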

Additional observations from a re-analysis of the deposited data

Results flagged for a closer look

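Each gene named above was checked for an array far from the others of its genotype, in 40 groups of 4 arrays. Such an array was found in 3 groups, near what chance gives at about 1 in 20, so nothing is read from the number. Neither group of Idgf1 was among them. Mthfs was at 2.24 on the log2 scale in w1118 replicate 1, against 1.05 to 1.19 in the other w1118 arrays. CG8204 was at -1.10 in w1118 replicate 2, against -0.55 to -0.48 in the other w1118 arrays. Uhg5 was at -0.21 in w1118 replicate 2, against 0.01 to 0.04 in the other w1118 arrays.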

How the results depend on the processing

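The Idgf1 difference was above 0 in 25 of 25 alternatives, but many of these could not have given another outcome. The settings for dim probes, separate probes, outlier spots, spot medians and blocks leave the difference of this probe unchanged by design. Where arrays were left out or 1 row was taken, its sign was fixed, since the groups did not overlap. In 23 alternatives, the unchanged ones included, it moved by less than the spread between replicates. That spread, the pooled SD between arrays, was 0.67 on the log2 scale, which is a wide limit. The difference of 1.26 without the 3 arrays high in small structured RNAs and that of 1.38 without scaling fell within it. The difference was 0.32 with normexp and quantile normalization and 0.62 with normexp and percentile scaling. Leaving out 1 array gave 1.57 to 2.19. The count of called targets was 1742 with the slide row as a block, 910 and 201 in rows 1 and 2 alone, 1047 with the replicate number as a block (replicate block) and 2279 with array weights. It was 2528 without darkcd4 replicate 3 and 136 to 282 leaving out any other array. In the 11 settings within 1.5 times of 420 it was 282 to 465. Of the listed genes tested, 1, Mthfs, was called with the row block, the replicate block and array weights, and 0 to 1 leaving out 1 array. Deviations from the group means correlated at 0.68, -0.18, 0.29 and 0.33 for replicates 1 to 4, and 4 of 8 arrays correlated best with their own number. Each array had 4 arrays of the other genotype to match, so some such matches come by chance, and these values do not settle pairing. The main fit had no block, although same-numbered arrays share a row of the slide, and its count of 420 (2.19%) holds for that choice. The floor setting, normexp with percentile scaling, the unscaled values and the fit without the arrays high in small structured RNAs were chosen after seeing the data. Normexp on the mean signal was not run, because the scanner files used here have no such column, and a filter on all 8 arrays leaves no Idgf1 value, since the probe was not well above background on w1118 replicate 4. Its low signal limits how exactly a fold can be given.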

Other observations

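Among the 265 named genes, 7 had a correlation with Idgf1 below -0.9 over the 8 arrays and 1 had one above 0.9. The lowest were Vha100-3, a subunit of the proton-pumping vacuolar ATPase, at -0.96, the mitochondrial calcium uniporter MCU at -0.94 and sle at -0.94. They were chosen after their values were seen. Vha100-3 was at 0.61, 0.66, 1.41 and 1.11 in darkcd4 replicates 1 to 4, against 1.42 to 1.67 in the w1118 arrays. MCU was at -3.64, -3.65, -3.54 and -3.61 in darkcd4, against -3.30, -3.34, -3.35 and -3.10 in w1118. Both were lower on every darkcd4 array than on any w1118 array, with mean differences of -0.58 ± 0.18 and -0.34 ± 0.12, and neither passed the test over all targets (log2 difference ± SE; limma, adjusted p = 0.136 and 0.173). The gene sle was at -0.90, -1.14, 0.03 and -0.50 in darkcd4, against -0.18, 0.02, 0.08 and 0.21 in w1118. Its groups overlapped, and its difference of -0.66 ± 0.23 did not pass (limma, adjusted p = 0.167). Over all targets 5.82% were lower in darkcd4 without overlap. The correlation that picked these genes takes in the difference between genotypes, so nothing is read from their lack of overlap.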
